A study of Homo sapiens with 12 samples.

Results

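The 10 genes described here encode the machinery that decides whether a cell leaves G1: the D-type cyclins CCND1, CCND2 and CCND3, their kinases CDK4 and CDK6, the Cip/Kip inhibitors CDKN1A, CDKN1B and CDKN1C, and the INK4 inhibitors CDKN2C and CDKN2D. They were chosen by name as G1 control genes, and each symbol matched exactly 1 of the 60663 Ensembl gene IDs in the count table. The study sequenced rRNA-depleted total RNA of RCC4, an established line of clear cell renal carcinoma. The 12 libraries form 4 groups of 3: VHL-negative cells (RCC4 with VHL loss) under 5 µM JQ1, VHL-negative cells under DMSO, VHL-positive cells (the same line with VHL reintroduced) under 5 µM JQ1, and VHL-positive cells under DMSO. JQ1 blocks the bromodomains of BET proteins, and the labels list it as an inhibitor of MYC; DMSO is its solvent control. All cells were grown with geneticin. Not stated in the labels are the construct that restored VHL, the number of clones, how long treatment lasted, and whether each replicate was its own culture. The p-values therefore measure only the spread between these libraries, which may be technical.

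D-type cyclins bind CDK4 or CDK6, and the resulting kinases phosphorylate the retinoblastoma protein, which releases E2F factors and lets S phase genes be transcribed. INK4 proteins bind CDK4 and CDK6 and keep cyclin D off, whereas Cip/Kip proteins bind whole cyclin and kinase complexes and chiefly block CDK2. VHL directs hypoxia-inducible factors to degradation, and in renal carcinoma cells without VHL, CCND1 is a known target of HIF-2.

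RefSeq promoter windows on GRCh38.p14 were matched by symbol for 7 of the 10 genes, in 12 windows of 300 bases around annotated transcript starts. Windows of 4 genes are printed 5′ to 3′ on the strand of the gene because their RNA moved with JQ1 in both lines (CDK6, CDKN1A, CDKN2D) or because the window is the richest in the E-box CACGTG, the sequence that MYC with MAX binds (CDK4). Capitals mark matches, on either strand, to CACGTG, to ACGTG and to GCGTG. Either ACGTG or GCGTG forms the core of the element that hypoxia-inducible factors bind, and every CACGTG also holds ACGTG.
CDK4, chr12:57752261-57752560, minus strand: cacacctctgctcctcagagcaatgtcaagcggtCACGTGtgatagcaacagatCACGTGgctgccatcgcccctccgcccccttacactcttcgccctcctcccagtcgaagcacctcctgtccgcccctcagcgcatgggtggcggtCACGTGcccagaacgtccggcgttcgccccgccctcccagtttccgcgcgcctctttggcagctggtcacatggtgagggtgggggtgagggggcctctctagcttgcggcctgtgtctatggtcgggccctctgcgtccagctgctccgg
CDK6, chr7:92836524-92836823, minus strand: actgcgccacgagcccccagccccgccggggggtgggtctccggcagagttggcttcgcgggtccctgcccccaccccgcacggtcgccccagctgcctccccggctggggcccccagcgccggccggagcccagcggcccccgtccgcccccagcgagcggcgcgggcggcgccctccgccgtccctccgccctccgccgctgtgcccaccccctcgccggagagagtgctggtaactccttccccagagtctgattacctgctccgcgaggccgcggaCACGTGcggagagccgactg
CDKN1A, chr6:36678464-36678763, plus strand: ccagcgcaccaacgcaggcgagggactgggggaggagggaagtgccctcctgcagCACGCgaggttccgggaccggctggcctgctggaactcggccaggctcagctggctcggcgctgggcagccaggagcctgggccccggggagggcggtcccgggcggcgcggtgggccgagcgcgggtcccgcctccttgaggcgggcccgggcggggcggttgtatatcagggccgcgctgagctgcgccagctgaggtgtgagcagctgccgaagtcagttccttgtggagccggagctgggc
CDKN2D, chr19:10568930-10569229, minus strand: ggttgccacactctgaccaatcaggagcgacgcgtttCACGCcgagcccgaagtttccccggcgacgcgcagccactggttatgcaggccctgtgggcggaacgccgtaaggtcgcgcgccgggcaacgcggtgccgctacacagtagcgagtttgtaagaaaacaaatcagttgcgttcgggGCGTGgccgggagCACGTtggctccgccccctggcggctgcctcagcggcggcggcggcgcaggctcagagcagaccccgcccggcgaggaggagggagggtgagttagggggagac
The CDK4 window holds CACGTG at 3 places, 216, 196 and 101 bases before the start. The CDK6 window holds it once, 31 bases after the start, and the other CDK6 window does not hold it. CACGTG lies in 4 of the 12 windows, from CDK4, CDK6 and CDKN2C, and in 7.26% of all 35116 promoter windows of that length. The CDKN1A window holds 1 GCGTG and no ACGTG, and the CDKN2D window holds 1 ACGTG and 2 GCGTG. These shorter sequences are common: ACGTG lies in 21.4% and GCGTG in 36.5% of all windows. The E2F sequences TTTCCCGC and TTTGGCGC are in 0 of the 12 windows, and in 1.63% and 0.652% of all windows.

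Levels are read counts relative to the library total (CPM) on library sizes scaled by TMM. Each change is a log2 fold change that edgeR's quasi-likelihood test gave when fitted to 20714 genes, and a gene passed where its Benjamini-Hochberg adjusted p was under 0.05. The libraries held 15452949 to 32502310 counts. VHL RNA followed the labels, at 32.7 ± 2.39 CPM in VHL-negative JQ1 and 26.4 ± 1.65 CPM in VHL-negative DMSO libraries, against 212 ± 14.02 CPM in VHL-positive JQ1 and 70.3 ± 7.62 CPM in VHL-positive DMSO libraries (SD, n = 3 each). VHL RNA itself rose with JQ1 in VHL-positive cells (log2 1.59, adjusted p = 3.47e-07), so the lines differed more in VHL RNA under JQ1 than under DMSO. Of 7 renal markers, PAX8, PAX2, CDH6, KRT8, KRT18 and VIM were present in every library. CA9, a target of hypoxia-inducible factors, ran from 0 to 97.8 CPM and split by line. Its means were 28.1 and 83.5 CPM in VHL-negative JQ1 and DMSO libraries, against 0.531 and 0.126 CPM in VHL-positive JQ1 and DMSO libraries. Endothelial, leukocyte and erythroid markers stayed at or below 9.89 CPM (ESAM), 4.36 CPM (CSF1R) and 0.427 CPM (ALAS2). The second VHL-positive DMSO library stood apart from its 2 replicates: it had the most CCND1 and MKI67 RNA and the least CDKN1B and CDKN1C RNA of its group. The second VHL-negative JQ1 library, the shallowest, had the least CDK4, CDKN1B, CDKN1C and CDKN2C RNA of its group.

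**Figure D1:**
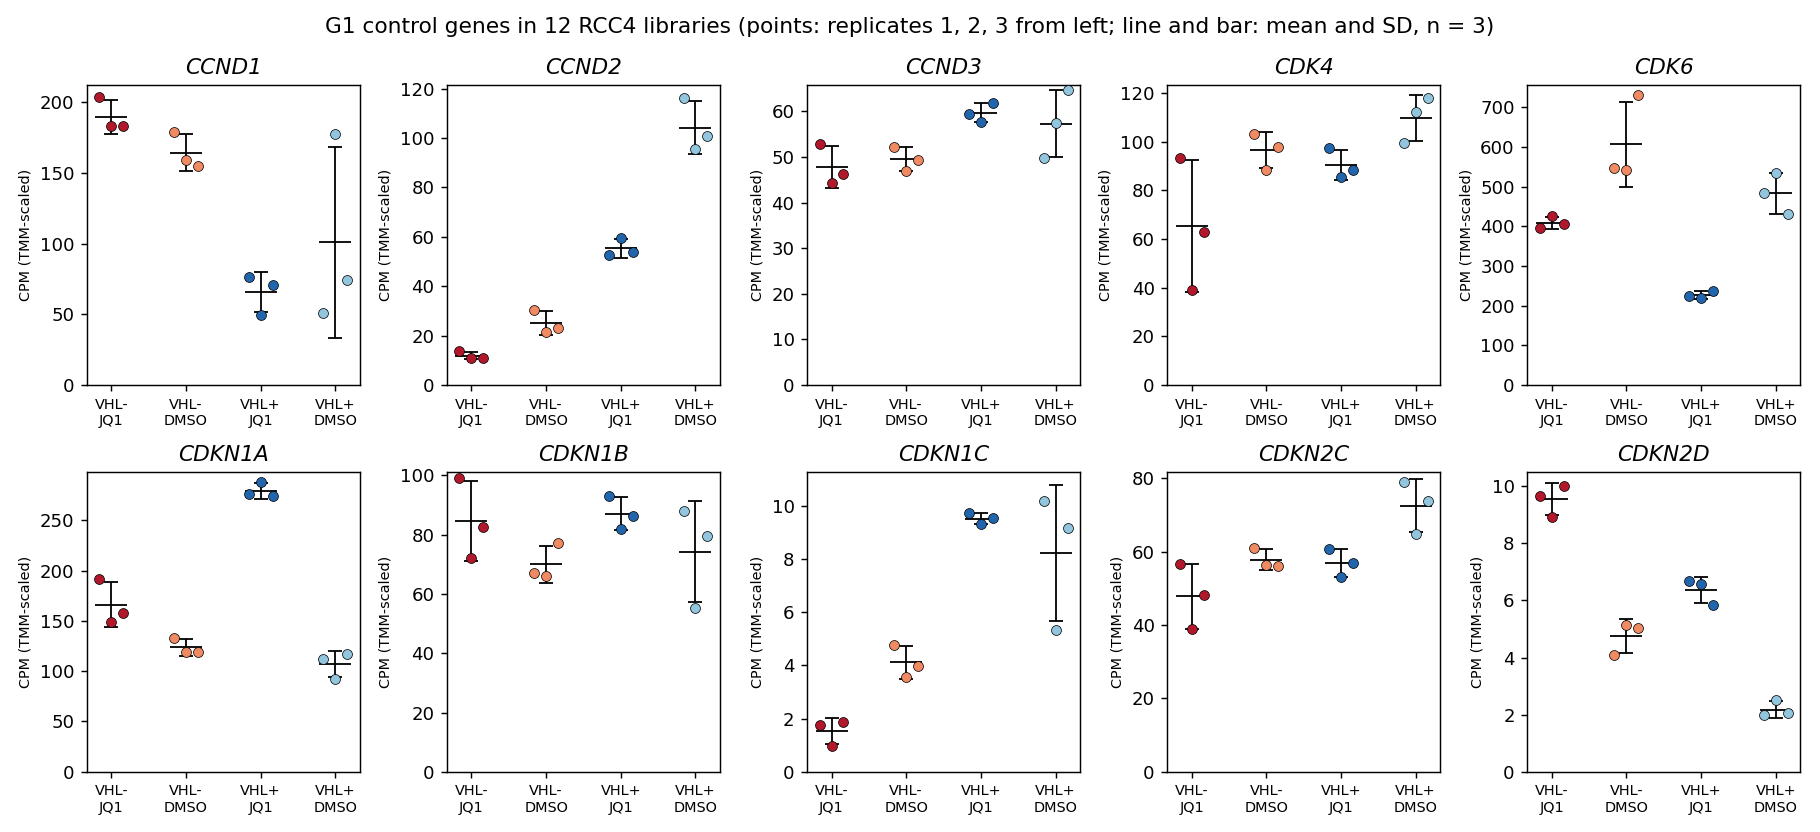
CPM of the 10 genes (y axis, linear from 0) in each library, by group (x axis), with points for replicates 1 to 3 and the mean and SD (n = 3) as line and bar. CCND2 and CDKN1C are lowest in VHL-negative JQ1 libraries, CDKN1A is highest in VHL-positive JQ1 libraries at 274 to 289 CPM, and CDKN2D is lowest in VHL-positive DMSO libraries.

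All 10 genes were tested in each comparison. With JQ1 in VHL-negative cells 2 rose and 3 fell, where 32.1% of all tested genes passed, 14.6% higher and 17.5% lower. The JQ1 and DMSO libraries did not overlap for 6 of the 10, beside 43.1% of all genes. With JQ1 in VHL-positive cells 2 rose and 2 fell, against 31.8% of all genes, 15.3% higher and 16.5% lower, and 6 of the 10 did not overlap, beside 48.2% of all genes. VHL-negative cells under DMSO had 1 gene higher and 2 lower than VHL-positive cells, where 30.7% of all genes passed, 14.8% higher and 15.9% lower. The lines did not overlap for 6 of the 10 under DMSO, beside 42.7% of all genes. Under JQ1, VHL-negative cells had 3 genes higher and 3 lower, where 40.9% of all genes passed, 19.7% higher and 21.2% lower, and 7 of the 10 did not overlap, beside 52.9% of all genes. The median log2 change of the 10 genes with JQ1 was −0.16 in VHL-negative cells, beside 0.034 for all genes, and −0.11 in VHL-positive cells, beside −0.028. Between VHL-negative and VHL-positive cells it was −0.14 under DMSO, beside 0.0018 for all genes, and −0.28 under JQ1, beside 0.033. Each of the 10 genes is worth 10 percentage points, so no excess over all genes is read from these counts. RNA of a bulk culture does not tell fewer cells expressing a gene from less RNA per cell.

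Per kilobase of exon, the order of the levels changed with the group. CDKN1A led under JQ1 in both lines, above the next gene in every library. It had 54.5 ± 7.35 CPM per kb in VHL-negative and 91.7 ± 2.60 CPM per kb in VHL-positive JQ1 libraries. Without division by exon length, CDK6 had the higher mean in VHL-negative JQ1 libraries (408 CPM, against 166 CPM for CDKN1A). In VHL-positive JQ1 libraries CDKN1A stayed higher (280 CPM, against 227 CPM for CDK6). CDK6 led under DMSO, at 49.5 ± 8.75 CPM per kb in VHL-negative libraries, above the next gene in each, and at 39.5 ± 4.21 CPM per kb in VHL-positive libraries, where it overlapped CDKN1A (35.2 ± 4.32) as CDKN1A did CDK4 (34.7 ± 2.97). CCND1 was second in VHL-negative JQ1 libraries (39.4 ± 2.49) and sixth in VHL-positive JQ1 libraries (13.6 ± 2.92, overlapping CCND3). CCND2, CDKN2D and CDKN1C filled the last 3 places in VHL-negative JQ1, VHL-negative DMSO and VHL-positive JQ1 libraries, and CDKN1C and CDKN2D the last 2 in VHL-positive DMSO libraries, where CCND2 (14.6 ± 1.51 CPM per kb) lay above CCND3.

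The D cyclins parted by line. CCND2, the D cyclin known from lymphoid and gonadal cells, was far lower in VHL-negative than in VHL-positive cells and fell with JQ1 in both. CCND1, the main D cyclin of epithelial cells, was higher in VHL-negative cells under JQ1, and CCND3, the most broadly expressed, passed in no comparison of the reported fit.

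CCND2 (ENSG00000118971, GRCh38 chr12:4273772-4305350) had 13.8, 11.1 and 11.0 CPM in VHL-negative JQ1 libraries, 30.6, 21.4 and 23.1 CPM in VHL-negative DMSO libraries, 52.5, 59.7 and 53.8 CPM in VHL-positive JQ1 libraries and 116, 95.4 and 101 CPM in VHL-positive DMSO libraries. The 4 groups do not overlap, and they step down from VHL-positive DMSO to VHL-negative JQ1. JQ1 lowered CCND2 2.09-fold in VHL-negative cells (log2 −1.06 with SE 0.155, adjusted p = 8.56e-05). In VHL-positive cells it fell 1.88-fold (log2 −0.91 with SE 0.148, adjusted p = 0.000248). The gap between lines was larger, 4.17-fold lower in VHL-negative cells under DMSO (log2 −2.06, adjusted p = 3.04e-08) and 4.62-fold lower under JQ1 (log2 −2.21, adjusted p = 1.92e-08). These calls held under all alternatives run. The JQ1 effects in the lines differed by −0.15 (95% interval −0.60 to 0.30, adjusted p = 0.701), which does not show that they are equal. Of the CCND2 exon bases 13.8% overlap AC008012.1 on the same strand, whose level was not looked at. The antisense CCND2-AS1 also overlaps CCND2 exons, and its group means were at most 0.392 CPM.

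CCND1 (ENSG00000110092, chr11:69641087-69654474) had 204, 183 and 183 CPM in VHL-negative JQ1 libraries and 179, 159.6 and 155 CPM in VHL-negative DMSO libraries, with no overlap and a difference that did not pass (log2 0.21, adjusted p = 0.639). It had 76.5, 49.7 and 70.9 CPM in VHL-positive JQ1 libraries and 50.8, 178 and 74.2 CPM in VHL-positive DMSO libraries, where the second library alone reached the VHL-negative range. Under JQ1 every VHL-negative library lay above every VHL-positive one, 2.89-fold (log2 1.53 with SE 0.316, adjusted p = 0.00119). Under DMSO the difference between lines did not pass (log2 0.71, adjusted p = 0.0984). That value rests on the second VHL-positive DMSO library: without it the difference was 1.41 on the log2 scale (adjusted p = 4.39e-05), and over all alternatives adjusted p ran from 4.39e-05 to 0.47. The JQ1 effect in VHL-positive cells was −0.62 (adjusted p = 0.145), 0.09 without the same library (adjusted p = 0.767) and −0.94 without the first VHL-positive DMSO library (adjusted p = 0.0131), within 0.0023 to 0.767 over all alternatives.

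CCND3 (ENSG00000112576) stayed between 44.2 and 64.6 CPM in the 12 libraries. Its 95% interval for JQ1 was −0.31 to 0.22 on the log2 scale in VHL-negative cells and −0.21 to 0.32 in VHL-positive cells, and under JQ1 its level in VHL-negative cells differed from that in VHL-positive cells by −0.32 (adjusted p = 0.0527). That difference passed in 7 of 25 alternatives, with adjusted p from 0.0172 to 0.334 over all of them.

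The make-up of D cyclin RNA per exon kilobase shows the same split. CCND1 made up 79.9 ± 0.629% of the summed D cyclin RNA in VHL-negative JQ1 libraries and 73.9 ± 0.853% in VHL-negative DMSO libraries. It made up 42.7 ± 5.94% in VHL-positive JQ1 libraries and 43.0 ± 16.4% in VHL-positive DMSO libraries, where the libraries ran from 29.8 to 61.3%. CCND2 made up 3.38 ± 0.207% in VHL-negative JQ1 and 7.54 ± 0.866% in VHL-negative DMSO libraries, against 24.7 ± 3.93% in VHL-positive JQ1 and 34.3 ± 11.9% in VHL-positive DMSO libraries. D cyclin RNA in VHL-negative cells was mostly CCND1. In VHL-positive cells it was spread over all 3 genes, except in the second DMSO library, where CCND1 made up 61.3%.

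**Figure D2:**
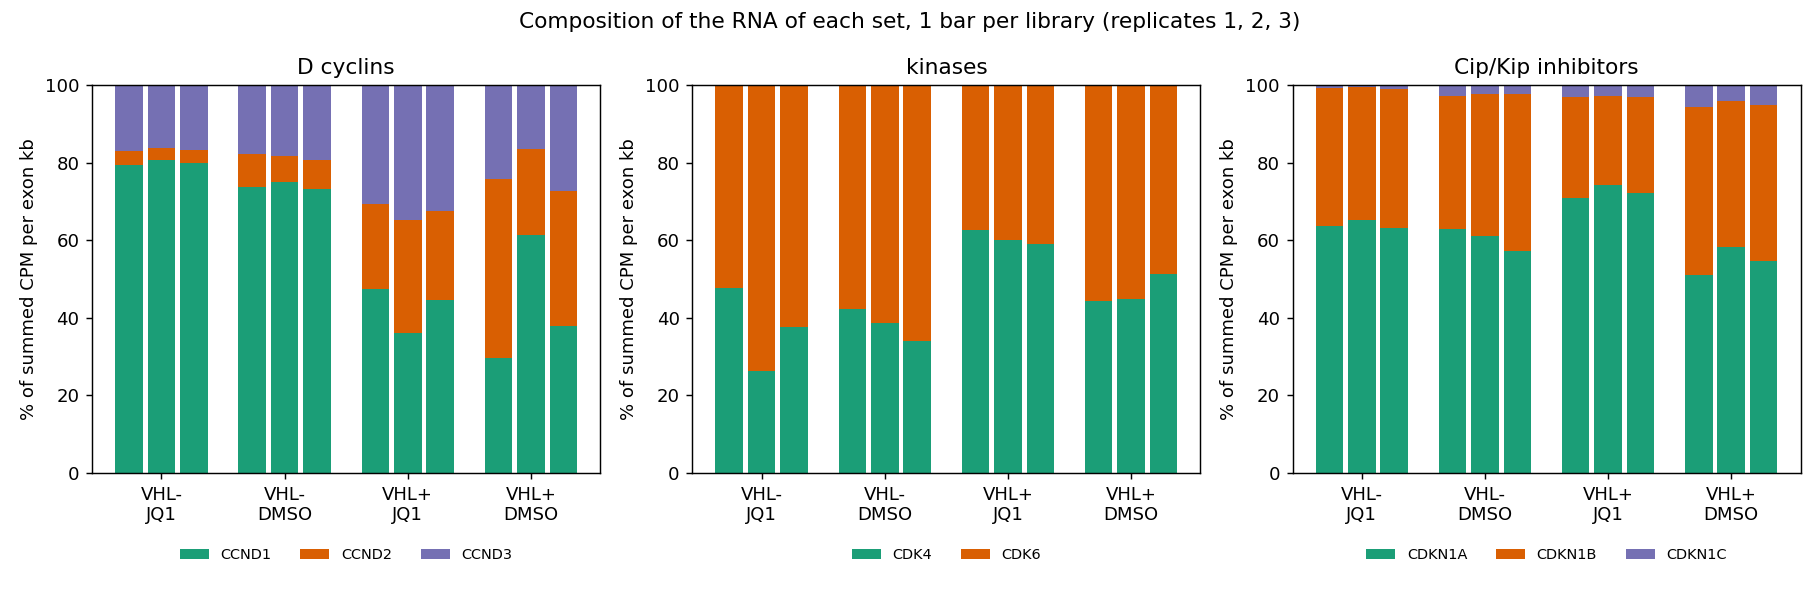
Share of each gene (y axis, percent of summed CPM per exon kilobase) in the D cyclins, the kinases and the Cip/Kip inhibitors, 1 stacked bar per library in replicate order, by group (x axis). CCND1 takes 79.3 to 80.5% of D cyclin RNA in VHL-negative JQ1 libraries and 36.0 to 47.4% in VHL-positive JQ1 libraries.

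Of the kinases, CDK6 fell with JQ1 in both lines and CDK4 passed in no comparison of the reported fit. CDK6 (ENSG00000105810, chr7:92604921-92836594) had 395, 425 and 405 CPM in VHL-negative JQ1 libraries, 547, 542 and 730.3 CPM in VHL-negative DMSO libraries, 224, 219.9 and 237 CPM in VHL-positive JQ1 libraries and 484, 535 and 432 CPM in VHL-positive DMSO libraries. In both lines every JQ1 library lay below every DMSO library. CDK6 fell 1.49-fold in VHL-negative cells (log2 −0.57 with SE 0.142, adjusted p = 0.00599) and 2.13-fold in VHL-positive cells (log2 −1.09 with SE 0.143, adjusted p = 3.82e-05). The call in VHL-negative cells was lost when replicate 3 of both JQ1 groups was left out (adjusted p = 0.0565, the highest over all alternatives, where the lowest was 0.000301). Under JQ1 CDK6 lay 1.80-fold higher in VHL-negative cells (log2 0.85, adjusted p = 0.000222), and under DMSO the difference did not pass although the lines did not overlap (log2 0.33, adjusted p = 0.0944). The difference between the JQ1 effects was 0.52 (95% interval 0.097 to 0.95, adjusted p = 0.152).

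CDK4 (ENSG00000135446, chr12:57747727-57756013) had 93.4, 39.2 and 63.0 CPM in VHL-negative JQ1 libraries and 103, 88.4 and 97.8 CPM in VHL-negative DMSO libraries. The second JQ1 library was the lowest of these 6, and the groups overlap. The change was −0.56 (SE 0.212, adjusted p = 0.0538). Without the second VHL-negative JQ1 library it was −0.29 (adjusted p = 0.213), without the first −0.92 (adjusted p = 0.000881), and in the authors' deposited table it passed (log2 −0.59, adjusted p = 0.045). It passed in 8 of 25 alternatives, among them DESeq2 (adjusted p = 0.0387) and limma-voom (0.0326), within 0.000881 to 0.213 over all of them. In VHL-positive cells it had 97.2, 85.6 and 88.3 CPM under JQ1 and 99.5, 112 and 118 CPM under DMSO (log2 −0.28, adjusted p = 0.337). Of the CDK4 exon bases 43.2% overlap TSPAN31 on the other strand, and no source used here gives the strand setting of the counting, so reads of both genes cannot be told apart there. TSPAN31 averaged 14.2 to 28.9 CPM per group and rose with JQ1 in VHL-positive cells (log2 0.71, adjusted p = 0.00345).

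**Figure D3:**
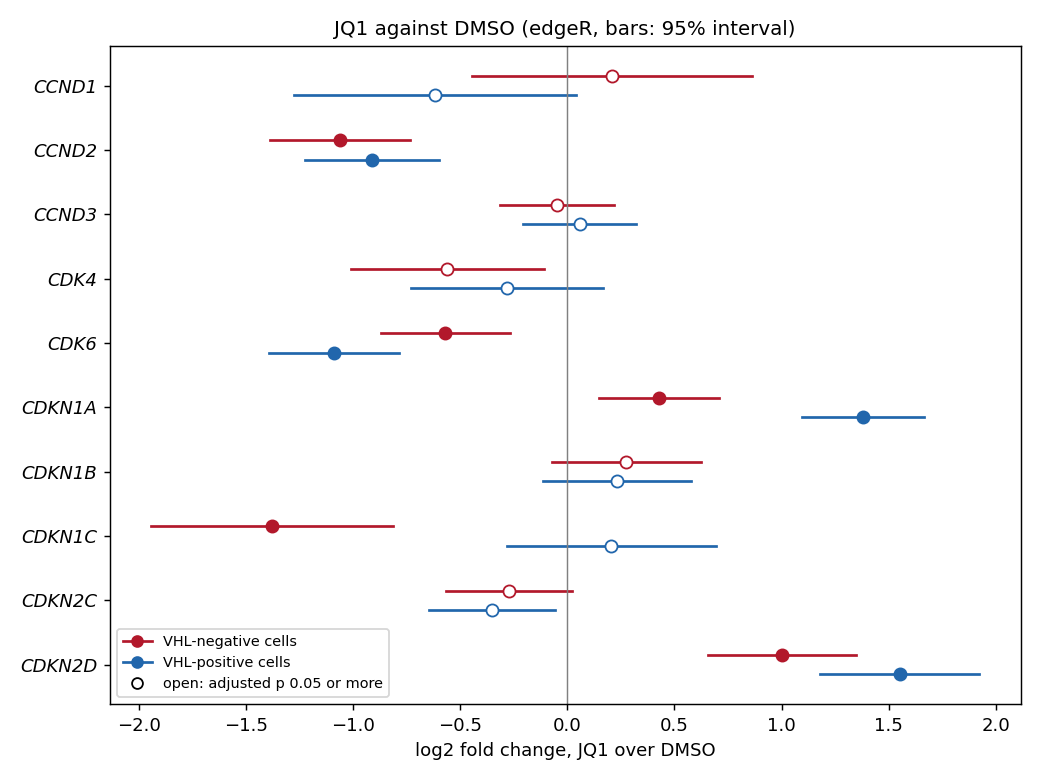
Log2 fold change of JQ1 over DMSO (x axis) for the 10 genes (y axis) in VHL-negative and VHL-positive cells, with 95% intervals from edgeR; filled points passed at adjusted p under 0.05. CCND2 and CDK6 lie left of 0 and CDKN1A and CDKN2D right of 0 in both lines, while CDKN1C lies at −1.38 in VHL-negative cells and 0.21 in VHL-positive cells.

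The Cip/Kip inhibitors changed gene by gene. CDKN1A, which encodes p21, an inhibitor that can halt the cycle after DNA damage, rose in both lines and more in VHL-positive cells. CDKN1C, an imprinted gene that encodes the CDK inhibitor p57, fell in VHL-negative cells and did not pass in VHL-positive cells. CDKN1B, which encodes p27, passed in no comparison.

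CDKN1A (ENSG00000124762, chr6:36676460-36687339) had 192, 149 and 158 CPM in VHL-negative JQ1 libraries and 133, 119 and 119 CPM in VHL-negative DMSO libraries. It had 276, 289 and 274 CPM in VHL-positive JQ1 libraries and 113, 92.5 and 117 CPM in VHL-positive DMSO libraries. In both lines the JQ1 libraries lay above the DMSO libraries, and VHL-positive JQ1 libraries lay above all others. CDKN1A rose 1.34-fold in VHL-negative cells (log2 0.43 with SE 0.132, adjusted p = 0.0217) and 2.60-fold in VHL-positive cells (log2 1.38 with SE 0.134, adjusted p = 2.68e-06). The call in VHL-negative cells was lost without the first VHL-negative JQ1 library (adjusted p = 0.0753), without replicate 2 (0.0734) or replicate 3 (0.0807) of VHL-negative DMSO, and its adjusted p ran from 0.00247 to 0.151 over all alternatives.

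CDKN1C (ENSG00000129757, chr11:2883213-2885773) was the least abundant Cip/Kip gene. It had 1.78, 0.953 and 1.86 CPM in VHL-negative JQ1 libraries, from 52, 16 and 48 counts, and 4.78, 3.58 and 3.98 CPM in VHL-negative DMSO libraries. It had 9.72, 9.32 and 9.53 CPM in VHL-positive JQ1 libraries and 10.2, 5.35 and 9.18 CPM in VHL-positive DMSO libraries. The VHL-negative groups do not overlap each other or the VHL-positive groups, which overlap each other. CDKN1C fell 2.60-fold with JQ1 in VHL-negative cells (log2 −1.38 with SE 0.266, adjusted p = 0.000956), and in VHL-positive cells the change was 0.21 (adjusted p = 0.539) and −0.0065 without the second DMSO library (adjusted p = 0.986, the highest over all alternatives, where the lowest was 0.265). It was 2.01-fold lower in VHL-negative cells under DMSO (log2 −1.01, adjusted p = 0.00395) and 6.03-fold lower under JQ1 (log2 −2.59, adjusted p = 1.37e-06).

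CDKN1B (ENSG00000111276) ran from 55.2 CPM in the second VHL-positive DMSO library to 99.1 CPM in the first VHL-negative JQ1 library, and its groups overlap in each comparison. The JQ1 change was 0.28 (95% interval −0.071 to 0.62) in VHL-negative cells and 0.23 (−0.11 to 0.58) in VHL-positive cells.

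Of the INK4 genes, CDKN2D, which encodes p19, rose with JQ1 in both lines and was higher in VHL-negative cells. CDKN2D (ENSG00000129355, chr19:10566462-10569059) had 9.67, 8.94 and 10.0 CPM in VHL-negative JQ1 libraries, 4.09, 5.15 and 5.03 CPM in VHL-negative DMSO libraries, 6.70, 6.56 and 5.85 CPM in VHL-positive JQ1 libraries and 1.97, 2.52 and 2.05 CPM in VHL-positive DMSO libraries. The 4 groups do not overlap. CDKN2D rose 2.01-fold in VHL-negative cells (log2 1.00 with SE 0.163, adjusted p = 0.000234) and 2.93-fold in VHL-positive cells (log2 1.55 with SE 0.175, adjusted p = 1.02e-05). It was 2.19-fold higher in VHL-negative cells under DMSO (log2 1.13, adjusted p = 0.000113) and 1.497-fold higher under JQ1 (log2 0.58, adjusted p = 0.00958). The last call was lost without the third VHL-positive JQ1 library (adjusted p = 0.0571) and when the third JQ1 libraries of both lines were left out together (0.149), within 0.0019 to 0.149 over all alternatives.

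CDKN2C (ENSG00000123080), which encodes p18, passed in no comparison of the reported fit and averaged 47.8 to 72.6 CPM per group; the nearest was JQ1 in VHL-positive cells (log2 −0.35, adjusted p = 0.0633), where the JQ1 and DMSO libraries do not overlap. That change passed in 7 of 25 alternatives, with adjusted p from 0.0129 to 0.229 over all of them. CDKN2D accounted for 30.9 ± 3.18% of the RNA of both INK4 genes per exon kilobase in VHL-negative JQ1 libraries and 15.4 ± 2.19% in VHL-negative DMSO libraries, against 19.9 ± 1.48% in VHL-positive JQ1 and 6.295 ± 1.41% in VHL-positive DMSO libraries. The other INK4 genes, looked at after their values were seen, were at the floor: CDKN2A had 1 count and CDKN2B 2 counts in the 12 libraries together, where 3 counts in a library equal 0.0923 to 0.194 CPM.

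The JQ1 effects were then set against each other, as VHL-negative minus VHL-positive. Of the 10 genes 2 differed, both lower in VHL-negative cells, where 1.21% of all tested genes differed, 0.497% higher and 0.71% lower. For CDKN1A the difference was −0.95 (SE 0.187, adjusted p = 0.022), since it rose less in VHL-negative cells. For CDKN1C it was −1.59 (SE 0.352, adjusted p = 0.0407), since it fell in VHL-negative cells. Both calls depend on the libraries used: over the alternatives the adjusted p of CDKN1A ran from 0.000144 to 0.23 and that of CDKN1C from 8.32e-05 to 0.184, and leaving out any single JQ1 library other than the first VHL-negative one, or the first VHL-negative DMSO library, ended both. The CDKN1C call also ended without replicate 2 or 3 of VHL-negative DMSO or replicate 3 of VHL-positive DMSO. The differences themselves kept their sign, within −1.09 to −0.82 for CDKN1A and −1.77 to −1.37 for CDKN1C. The median difference of the 10 genes was −0.13, beside 0.011 for all genes.

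**Figure D4:**
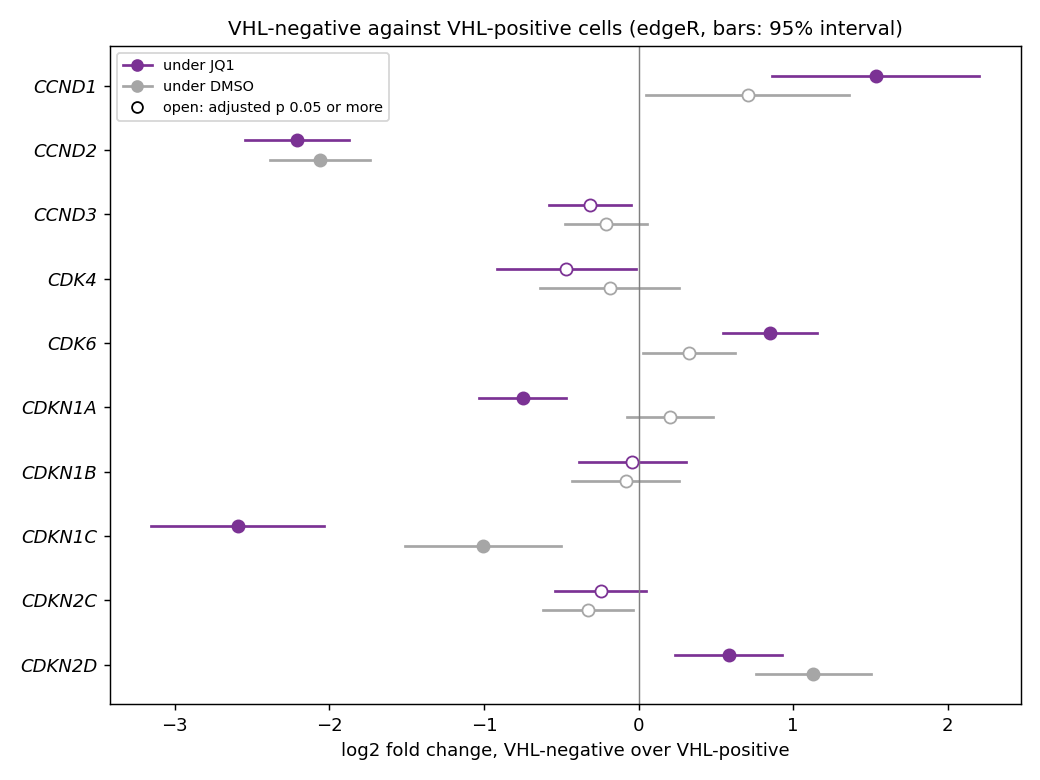
Log2 fold change of VHL-negative over VHL-positive cells (x axis) for the 10 genes (y axis) under JQ1 and under DMSO, with 95% intervals from edgeR; filled points passed at adjusted p under 0.05. CCND2 and CDKN1C lie left of 0 and CDKN2D right of 0 under both treatments, and CDKN1A lies at −0.75 under JQ1 and 0.20 under DMSO.

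Summed over the 5 inhibitors and divided by the summed D cyclins, both per exon kilobase, the RNA ratio was 1.97 to 2.295 in VHL-negative JQ1 libraries and 1.80 to 2.02 in VHL-negative DMSO libraries. It was 4.425 to 5.17 in VHL-positive JQ1 libraries and 1.22 to 2.76 in VHL-positive DMSO libraries, and the VHL-positive JQ1 libraries lay above all others. The Cip/Kip genes carried most of that sum, 124 to 128 CPM per kb in VHL-positive JQ1 libraries and 52.1 to 72.35 CPM per kb in VHL-positive DMSO libraries. The summed RNA of 12 genes of cycling cells was 2164 to 2855 CPM in VHL-negative JQ1 and 2629 to 3052 CPM in VHL-negative DMSO libraries. It was 1453 to 1726 CPM in VHL-positive JQ1 and 1953 to 3203 CPM in VHL-positive DMSO libraries. By this sum the VHL-positive JQ1 libraries lay below all others, and the VHL-negative groups overlapped. With JQ1, 0 of these 12 rose and 2 fell in VHL-negative cells, beside 14.6% of all genes higher and 17.5% lower. In VHL-positive cells 0 rose and 5 fell, beside 15.3% of all genes higher and 16.5% lower. No excess over all genes is read from these JQ1 counts. MKI67, the proliferation antigen Ki-67, fell in VHL-positive cells (log2 −1.12, adjusted p = 0.00276) and had a change of −0.15 in VHL-negative cells (adjusted p = 0.668). PCNA, another gene of this list, passed in neither line in the reported fit. With single libraries left out, its adjusted p ran from 0.0493 to 0.836 in VHL-positive and from 0.277 to 0.998 in VHL-negative cells. Between lines under JQ1, 8 of the 12 were higher and 1 lower in VHL-negative cells (median log2 0.71). The shares of all genes were 19.7% higher and 21.2% lower. Under DMSO 1 was higher and 1 lower, beside 14.8% of all genes higher and 15.9% lower. The difference between the JQ1 effects passed in 0 of the 12, beside 1.21% of all genes. The part of cycling in the values of the 10 genes was not tested.

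Around the 10 genes, 21 other G1 genes were counted: E-type cyclins, CDK2 and its activators, pocket proteins, E2F and DP factors, and ubiquitin ligase parts that act on cyclins and inhibitors. With JQ1, 1 rose and 6 fell in VHL-negative cells (median −0.18), where 32.1% of all genes passed, 14.6% higher and 17.5% lower. In VHL-positive cells 3 rose and 5 fell (median −0.28), where 31.8% of all genes passed, 15.3% higher and 16.5% lower. The medians of all genes are given above. No excess over all genes is read from these counts. E2F2, an activator of S phase genes, fell 2.78-fold in VHL-negative cells (log2 −1.47, adjusted p = 0.000173) and 7.21-fold in VHL-positive cells (log2 −2.85, adjusted p = 1.5e-06), and E2F3 fell in both (log2 −0.55 and −0.97). SKP2, the ligase subunit that marks the p27 protein for degradation, fell in both lines (log2 −0.62, adjusted p = 0.00205 in VHL-negative and −0.93, adjusted p = 8e-05 in VHL-positive cells). CDKN1B RNA did not pass, and p27 protein was not measured here. CCNH, the cyclin of the CDK-activating kinase, rose in both lines (log2 0.72, adjusted p = 0.000208 in VHL-negative and 0.57, adjusted p = 0.00133 in VHL-positive cells). CDC25A, the phosphatase that activates CDK2, fell in VHL-positive cells (log2 −1.17, adjusted p = 0.000477) and had a change of −0.31 in VHL-negative cells (adjusted p = 0.25), a difference that did not pass (adjusted p = 0.111).

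Between the lines, 6 of these 21 genes were higher and 1 lower in VHL-negative cells under DMSO. There 30.7% of all genes passed, 14.8% higher and 15.9% lower. Under JQ1 7 were higher and 4 lower, where 40.9% of all genes passed, 19.7% higher and 21.2% lower. No excess over all genes is read from these counts either. RBL1, the pocket protein p107, was 1.81-fold higher under DMSO and 2.32-fold higher under JQ1 (adjusted p = 0.00225 and 0.000112), and E2F1 1.67-fold and 2.30-fold higher (adjusted p = 0.00489 and 8.08e-05). TFDP1, a DP partner of E2F, was higher under DMSO (log2 0.55, adjusted p = 0.0107), and TFDP2 lower (log2 −0.38, adjusted p = 0.0278). The TFDP1 call was lost without the first VHL-positive DMSO library (adjusted p = 0.0584), and that of TFDP2 without replicate 3 of any group, replicate 2 of VHL-negative DMSO or replicate 1 of VHL-positive DMSO (adjusted p = 0.05 to 0.123). For 0 of the 21 did the JQ1 effects differ between lines, beside 1.21% of all genes.

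Of the factors known to act on these genes, MYC, a known repressor of CDKN1A, fell with JQ1 in VHL-negative cells (log2 −1.10, adjusted p = 0.000869) and had a change of −0.08 in VHL-positive cells (adjusted p = 0.795), a difference that did not pass (log2 −1.01, adjusted p = 0.0852). EPAS1, which encodes HIF-2 alpha, rose with JQ1 in both lines (log2 0.54 in VHL-negative and 0.76 in VHL-positive cells, adjusted p = 0.00781 and 0.000701), and its RNA was lower in VHL-negative cells under DMSO (log2 −0.70, adjusted p = 0.00116).

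Across the 12 libraries, which fall into the 4 groups, the expressed gene most like CCND2 by Pearson correlation of log2 CPM was CDH16 (r = 0.991). The closest gene was RNF103 for CDKN1A (r = 0.989), QPRT for CDKN1C (r = 0.985), CRYBG3 for CDKN2D (r = 0.983), KIFC1 for CCND1 (r = 0.978) and LIF for CDK6 (r = 0.977). For the genes that passed in no comparison it was ACAA2 for CDK4 (r = 0.966), TARBP2 for CDKN2C (r = 0.968), PPM1K for CDKN1B (r = 0.954) and SURF4 for CCND3 (r = 0.944). These values describe likeness over shared groups and libraries.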

How the data were processed

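The authors' deposited table holds raw counts per Ensembl gene. Per the submitters' processing notes, tools included featureCounts, Subread 2.0.3, DESeq2 1.30.1 and STAR 2.7.8, on build GRCh38; no source used here gives the strand setting. For each line a table of the authors' own comparison of JQ1 with DMSO was deposited. The authors' deposited tables give log2 fold changes, a test statistic (a score) and p-values. They also give a mean of another (other) kind, that over libraries of counts divided by size factors. These tables are used here for the log2 fold changes and adjusted p-values of single genes.

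The 10 genes and all lists were chosen with earlier results of these data known. The other G1 genes named were the up to 4 with the smallest p among those that passed in each comparison. The counts were fitted with edgeR 4.0.16 (R 4.3.3): TMM scaling, the filter on low counts by group (20714 genes, 99.869% of counts), and 1 quasi-likelihood model with 1 mean per group over the 12 libraries. It was tested on simulated data. Gene positions and exon lengths came from GENCODE release 29. Standard errors are the log2 fold change over the root of the F statistic. Alternatives were other scalings, filters and thresholds, DESeq2 1.42.0, limma-voom (limma 3.58.1), a replicate block, fits of only the compared groups, and left-out libraries. CDKN2A and CDKN2B were added after seeing their values. No spike-ins were used here, so RNA per cell is not measured.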

Additional observations from a re-analysis of the deposited data

Results flagged for a closer look

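Of the 10 genes, 2 had JQ1 effects that differed between the lines by edgeR's quasi-likelihood test of the difference itself: CDKN1A (log2 −0.953, VHL-negative minus VHL-positive) and CDKN1C (log2 −1.59). In the other 8 the difference did not pass. VHL, which served to check the labels, also had JQ1 effects that differed (log2 −1.29, adjusted p = 0.00161), since its RNA rose with JQ1 in VHL-positive cells and did not pass in VHL-negative cells (adjusted p = 0.0674). No cause of these differences was tested.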

How the results depend on the processing

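Of 1240 results for the 10 genes under up to 25 alternatives each, 1146 kept direction and side of the threshold, 31 lost a call, 37 gained one and 26 changed sign, the last only in values that had not passed; causes were not tested beyond what each alternative removes. At adjusted p under 0.01, 4039 and 3989 genes passed for JQ1 in VHL-negative and VHL-positive cells, 4137 and 5483 for VHL-negative against VHL-positive cells under DMSO and under JQ1, and 47 for the difference between the JQ1 effects, where 0 of the 10 genes passed. Leaving out replicate 3 of both JQ1 groups, the counts were 3957 and 4160 for JQ1, 4814 between lines under JQ1 and 25 for the difference, with 3 of the 10 genes for JQ1 in VHL-negative cells and 0 for the difference. For the difference, 1336 genes passed with no filter on low counts and 1188 with DESeq2, against 250 reported, and leaving out single libraries gave 43 to 3510 genes and 0 to 2 of the 10; total counts alone and limma-voom each left 1 of the 10. Total counts alone shifted the median of all genes by −0.11 for JQ1 in VHL-positive cells, and by 0.16 between lines under JQ1. With them the share of higher genes among those that passed was 34.1%, against 48.1% reported, for JQ1 in VHL-positive cells, 62.1% against 48.1% between lines under JQ1 and 56.3% against 41.2% for the difference. Protein-coding genes alone shifted the median between lines under JQ1 by 0.12 and of the difference by 0.13, with 51.9% against 41.2% higher for the difference.

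Sign changes were these. For CCND3 they were 0.038 (JQ1, VHL-negative cells, protein-coding genes), −0.055 (JQ1, VHL-positive, total counts alone), −0.036 (JQ1, VHL-positive, without replicate 1 of both DMSO groups) and, for the difference, 0.024 (protein-coding genes) and 0.016 (without those replicates). For CDKN1B they were 0.087 between lines under DMSO without replicate 1 of both DMSO groups, 0.11, 0.0089 and 0.075 between lines under JQ1 with total counts alone, at least 1 CPM in 3 libraries and protein-coding genes, and for the difference −0.013 with no filter and −0.14 without these replicates. MKI67 in VHL-negative cells gave 0.15 without those replicates. Leaving out single libraries spanned 0 for JQ1 in VHL-negative cells in CCND3 (−0.14 to 0.016), MKI67 (−0.38 to 0.16) and PCNA (−0.11 to 0.42), and in VHL-positive cells in CCND1 (−0.94 to 0.091), CCND3 (−0.035 to 0.16), CDKN1C (−0.0065 to 0.38) and MYC (−0.27 to 0.16). It did so for CDKN1B between lines under DMSO (−0.25 to 0.056) and under JQ1 (−0.19 to 0.067), and for the difference in CCND2 (−0.29 to 0.0054), CDKN1B (−0.11 to 0.20) and CDKN2C (−0.081 to 0.21). Without division by exon length, CCND1 made up 76.1% of D cyclin RNA in VHL-negative JQ1 and 68.9% in VHL-negative DMSO libraries. Its share was 36.1% in VHL-positive JQ1 libraries. CDK4 made up 13.7% and 13.9% of kinase RNA in VHL-negative JQ1 and DMSO libraries, against 37.2% and 38.35% per exon kilobase. In VHL-positive JQ1 and DMSO libraries CDK4 made up 28.5% and 18.6%, against 60.6% and 46.8% per exon kilobase. CDKN1A made up 65.9% and 74.3% of Cip/Kip RNA in VHL-negative and VHL-positive JQ1 libraries.

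Deviations of same-numbered samples correlated at 0.274, 0.335 and 0.00886 (replicates 1, 2 and 3) for JQ1 in VHL-negative cells, at 0.243, 0.165 and 0.0116 between lines under JQ1, at −0.26 to −0.0282 between lines under DMSO, and at −0.0384 to 0.0184 for JQ1 in VHL-positive cells. Not every pair exceeded 0.1, so the numbers were not taken to pair the samples. With a replicate block 6612 and 6423 genes passed for JQ1 in VHL-negative and VHL-positive cells, 6191 and 8406 between lines under DMSO and under JQ1, and 272 for the difference; CDK4 in VHL-negative cells (adjusted p = 0.0336) and CDKN2C in VHL-positive cells (adjusted p = 0.0388) passed with the block, as each did in some other alternatives. CDKN1C had 16 to 52 counts in VHL-negative JQ1 libraries, which limits its precision.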
